A study of Bos taurus with 16 samples.

Results

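Motile cilia and axoneme genes were followed in endometrium, the tissue that lines the uterus, in biopsies of 4 fertile cows. The genes were those whose name in the array files belongs to the families DNAH, DNAI, DNAL, CFAP, IFT, RSPH, TEKT, SPAG, TTLL or BBS, or is FOXJ1, CCDC39, CCDC40, CCDC114, HYDIN or PIFO. This rule found 122 of the 43653 probes that are not controls, for 61 of the 16370 gene symbols on the array. No probe carried a file name of the CFAP family, CCDC114, HYDIN or PIFO, although probes of some of these genes stand under older names and are given at the end. The rule goes by name, but it was set with earlier results of these data known. A few of the SPAG and TTLL names that it takes belong to proteins with roles outside cilia.

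The same cows were sampled at nominal days 10, 30, 50 and 100 after parturition, which were true days 9 to 10, 29 to 30, 49 to 51 and 99 to 100. Pieces were taken from the uterine horns with biopsy forceps, and RNA from each cow and day was hybridised to 1 one-colour Agilent array, giving 16 arrays and 4 cows per day. No cow was sampled before parturition and none was treated, so day 10, the earliest time, serves as the baseline. Breed and cycle stage were not given in the sources used here. All 4 arrays of a cow were on 1 slide, so cow and slide cannot be told apart.

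A motile cilium is built around the axoneme, a ring of microtubule doublets with a central pair of microtubules. Outer and inner dynein arms on the doublets are the motors that bend it, while radial spokes and the central pair regulate the beat. FOXJ1 is the transcription factor that switches on the motile cilia programme in multiciliated cells, which in the uterus stand among the secretory cells of the luminal and glandular epithelium. Intraflagellar transport (IFT) proteins and the BBSome carry cargo in every kind of cilium, including the single immotile primary cilium that most other cells possess.

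A level is given as the log2 processed signal relative to the 75th percentile of its array, so that a level of 0 equals that percentile, and levels of different probes are not set against each other. Where a gene had several probes, its level is that of the probe with the highest mean. The scanner software marks a spot as well above background or not, and probes with 4 or more of the 16 arrays so marked were tested. Of the member probes 98 passed, for 53 genes. The other 24 probes did not, and they were the sole probes of 8 genes: DNAH5, RSPH6A, SPAG16, SPAG17, TEKT5, TTLL2, TTLL6 and TTLL8. Member probes numbered 57 that were well above background on all 16 arrays and 12 that were so on none.

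The arrays differed in brightness and in tissue make-up. The median processed signal ran from 51.1 to 154, the share of all probes well above background from 61.1% to 76.9%, and correlations between arrays of the same day from 0.83 to 0.98. Epithelium was present throughout: 15 of 19 epithelial marker genes were well above background on all arrays. The mean level of these markers relative to all arrays nevertheless ran from -3.84 in cow 2 at day 100 to 2.94 in cow 1 at day 100. Smooth muscle markers ran the other way on those arrays, at 2.25 and -3.72. In whole tissue, fewer cells of a type and less RNA per cell cannot be told apart.

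Detection was described for 2 groups of cilia genes set by role, which leave out the TTLL genes and the SPAG genes outside the axoneme. Probes of axonemal parts and FOXJ1 (45 probes, 29 genes) were well above background in 61 of 180 combinations of probe and array at day 10 (33.9%), 83 at day 30 (46.1%), 121 at day 50 (67.2%) and 103 at day 100 (57.2%). Probes of IFT and BBS genes (41 probes, 16 genes) were so in 156 of 164 combinations at day 10 (95.1%), 158 at day 30 (96.3%), 160 at day 50 (97.6%) and 154 at day 100 (93.9%). The range of a gene over the 16 arrays had a median of 3.69 on the log2 scale in the axonemal group (1.28 to 8.53, 24 genes with a tested probe), against 1.52 (0.92 to 2.26, 16 genes) for IFT and BBS genes. The low ends of many axonemal ranges are undetected values. Over genes whose probe was well above background on all 16 arrays, the median range was 2.57 for 7 axonemal genes (1.28 to 6.67) and 1.48 for 15 IFT and BBS genes (0.92 to 2.25). These are descriptions and were not tested.

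**Figure D1:**
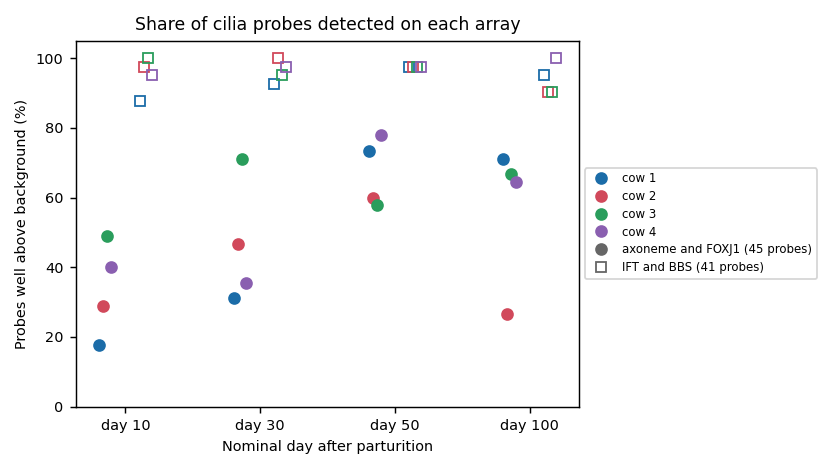
Share of probes well above background (vertical axis, %) on each array by nominal day (horizontal axis), coloured by cow. Filled circles are the 45 probes of axonemal parts and FOXJ1, open squares the 41 probes of IFT and BBS genes. The circles sit between 17.8% and 48.9% at day 10 and between 57.8% and 77.8% at day 50, while cow 2 at day 100 is at 26.7%.

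The detected share separated the cows as well as the days. At day 10 it was 17.8%, 28.9%, 48.9% and 40.0% of the 45 axonemal probes in cows 1 to 4. At day 30 it was 31.1%, 46.7%, 71.1% and 35.6%, so that cow 3 stood above the other cows. At day 50 it was 73.3%, 60.0%, 57.8% and 77.8%, with every cow above every day 10 value. At day 100 it was 71.1%, 26.7%, 66.7% and 64.4%, with cow 2 back among the day 10 values. The share of all probes well above background was 61.1% for cow 1 at day 10 and 63.4% for cow 2 at day 100, both at the low end of the arrays.

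Levels were read over the 24 axonemal genes with a tested probe. Values below background have no order and differ between arrays: the 12 member probes detected on no array had a median level of -6.97 in cow 1 at day 10, -7.60 in cow 1 at day 30, and -9.08 to -8.06 on the other arrays. The mean level of the 24 axonemal genes relative to all arrays was -0.60, -1.04, -0.91 and -1.35 in cows 1 to 4 at day 10. It was -0.62, -0.70, 1.77 and -1.33 at day 30. It was 1.39, 0.33, -0.33 and 1.00 at day 50, and 1.61, -1.17, 1.22 and 0.73 at day 100. Cow 3 at day 30 held the highest level of 10 of the 24 genes, cow 1 at day 100 that of 7 and cow 3 at day 100 that of 4.

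Within a cow, day 100 and day 10 could be compared over the axonemal genes detected well above background on either array or both. Day 100 was higher for 23 of 24 genes in cow 1, 5 of 12 in cow 2, 20 of 21 in cow 3 and 22 of 22 in cow 4. Day 50 was higher than day 10 for 23 of 24 genes in cow 1, 16 of 20 in cow 2, 11 of 18 in cow 3 and 24 of 24 in cow 4. A gene detected on the later array alone tends to enter as higher, and no share over all probes stands beside these counts. Genes on 1 array are also not independent of each other, so the counts describe the cows and support no call.

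**Figure D2:**
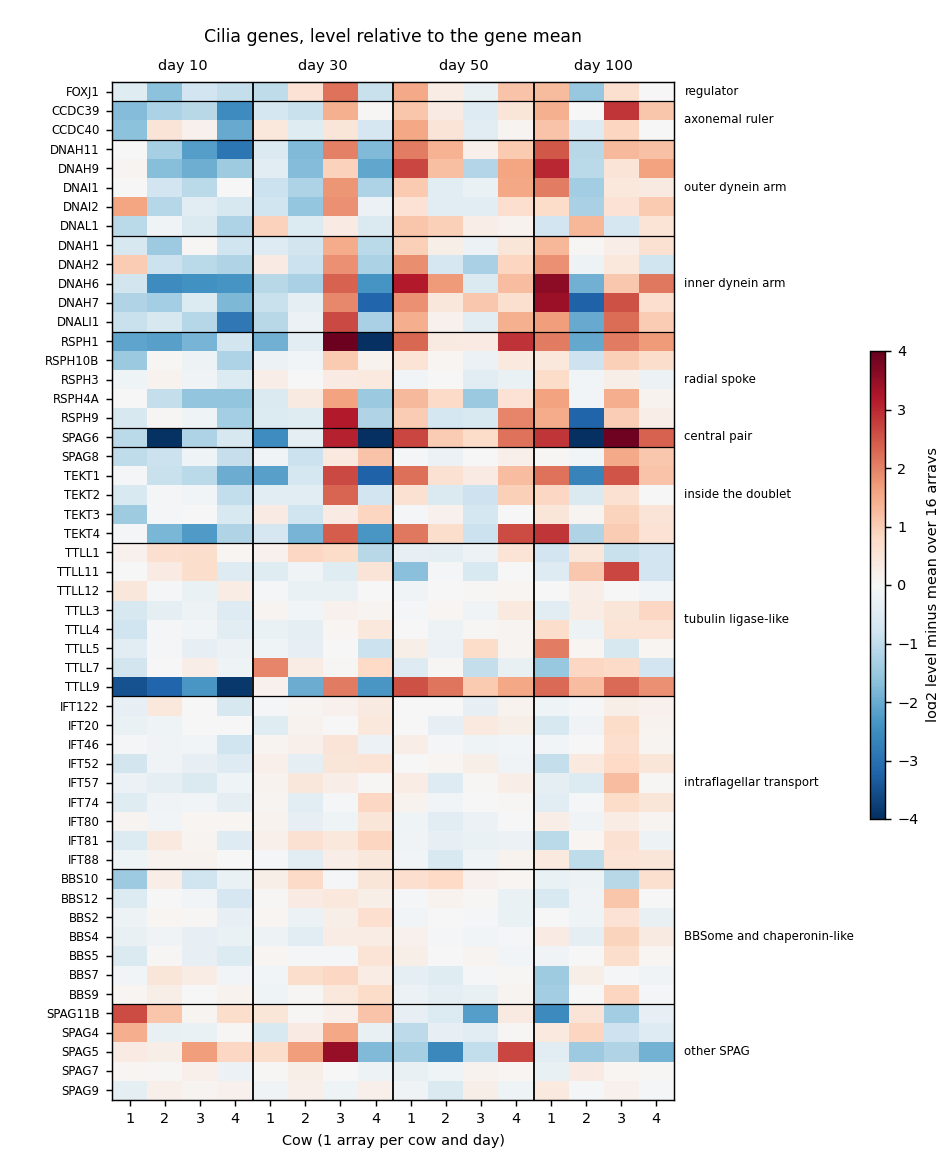
Level of each of the 53 genes with a tested probe (rows, ordered by role) on each array (columns, by day and cow), as the log2 level minus the gene's mean over the 16 arrays, with the colour scale ending at 4 in either direction. Axonemal rows are mostly blue at day 10 and red in cow 3 at day 30, in cows 1 and 4 at day 50 and in cows 1 and 3 at day 100, while IFT and BBS rows stay pale.

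Few of these differences passed the test, which was limma with terms for day and cow, two-sided, with Benjamini-Hochberg adjustment over all 33182 tested probes. At day 100 against day 10, 5 member probes of 3 genes were higher at an adjusted p under 0.05 and 0 were lower, against 1.45% of all tested probes higher and 3.15% lower. The 3 genes were TTLL9, CCDC39 and SPAG8. At an unadjusted p under 0.05 there were 20 of 98 member probes higher (20.4%) and 7 lower (7.14%), beside 10.9% and 14.9% of all tested probes. At day 50 against day 10, 3 member probes were higher and 0 were lower, against 0.594% and 1.05% of all tested probes, and all 3 belong to TTLL9. At day 30 against day 10, no member probe was called, against 0.0121% of all tested probes higher and 0.407% lower, and 11 member probes (11.2%) were higher and 0 lower at an unadjusted p under 0.05, beside 5.84% and 8.19% of all tested probes.

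Between the later days limma called no probe of the whole array, members included (0.0% in each direction for day 50 against day 30, day 100 against day 30 and day 100 against day 50). At an unadjusted p under 0.05 there were 6 member probes higher and 3 lower for day 50 against day 30 (6.12% and 3.06%, beside 4.96% and 4.37% of all tested probes). There were 7 higher and 6 lower for day 100 against day 30 (7.14% and 6.12%, beside 5.52% and 7.29%), and 0 in either direction for day 100 against day 50 (beside 0.928% and 2.21%). The F test over the 4 days called 3 member probes, again those of TTLL9, against 1.03% of all tested probes. Over all 122 member probes, without the filter on dim probes, the median difference was 0.34 for day 100 against day 10, 0.21 for day 50 against day 10 and 0.29 for day 30 against day 10. Over all 43653 probes it was -0.11, -0.14 and -0.07. A normexp background correction, which compresses dim signals, moved the median of all tested probes for day 100 against day 10 to 0.23, against -0.07 without it, and gave 20 member probes higher and 0 lower, beside 4.63% and 1.83% of all tested probes. The 12 genes called were CCDC39, DNAH6, DNAH7, DNAH9, DNAH11, DNALI1, RSPH10B, SPAG6, SPAG8, TEKT1, TTLL5 and TTLL9.

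TTLL9, a tubulin ligase-like enzyme that in mice adds glutamate chains to axonemal tubulin, had the largest difference among the members called. Its level was -7.16, -6.86, -6.02 and -7.54 in cows 1 to 4 at day 10, where it was well above background in 1 cow. At day 30 it was -3.51, -5.67, -1.61 and -6.01. At day 50 it was -1.13, -1.55, -2.63 and -2.14, and at day 100 it was -1.43, -2.46, -1.42 and -1.84. Neither the day 50 nor the day 100 values overlapped those of day 10. The day 30 values ran from -6.01, just above the highest day 10 value of -6.02, to -1.61. The level rose by 5.03 ± 0.69 at day 50 (SE, adjusted p = 0.00979, limma, 4 of 4 cows) and by 5.10 ± 0.69 at day 100 (adjusted p = 0.00584, limma, 4 of 4 cows), both relative to day 10. At day 30 the difference was 2.70 ± 0.69 (adjusted p = 0.115, limma). Without cow 1 the calls were lost (adjusted p = 0.12 at day 50 and 0.0651 at day 100, limma), and that at day 50 also without cow 2 (0.0515) or cow 4 (0.0535). The day 10 values were mostly undetected. Under normexp background correction the differences were smaller, at 2.59 for day 50 (adjusted p = 0.0104, limma) and 2.82 for day 100 (adjusted p = 0.00464, limma).

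The 3 TTLL9 probes do not measure 3 separate places. On build HGSC Btau_3.1 of the bovine genome they lie on chromosome 13, plus strand, at chr13:62324606-62324665, chr13:62324612-62324671 and chr13:62324604-62324662. They are called probes 1, 2 and 3 here, and probe 1 is the brightest. Probes 1 and 2 share 54 bases. Probe 3 carries another version of the same stretch, as the next 30 bases show, starting in each probe from the same point. Capitals mark bases that are not matched between the 2 versions.
TTLL9 probe 1: atgcagcaagttatacCtgagggagatcac
TTLL9 probe 2: atgcagcaagttatacCtgagggagatcac
TTLL9 probe 3: atgcagcaCagttatacTtgagggagatca

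Both versions moved the same way. Probe 2 rose by 5.29 ± 0.69 at day 100 relative to day 10 (adjusted p = 0.00534, limma). Probe 3, which was not well above background in any cow at day 10, rose by 3.49 ± 0.64 (adjusted p = 0.0173, limma). Taking the detection limit of the day 10 arrays in place of its values there, it was at least 3.19-fold higher at day 100 and at least 2.69-fold higher at day 50. Where the probes lie relative to exons is not analysed here.

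CCDC39 and CCDC40 form the ruler along the doublet that sets the spacing of dynein arms and radial spokes. CCDC39 had levels of -6.83, -6.36, -6.21 and -7.62 in cows 1 to 4 at day 10 and was well above background in 1 of them. The levels were -5.81, -5.98, -3.67 and -5.05 at day 30, -4.00, -4.78, -5.62 and -4.63 at day 50, and -3.69, -5.13, -2.23 and -3.98 at day 100. Every cow at day 100 was above every cow at day 10. CCDC39 rose by 3.00 ± 0.58 at day 100 relative to day 10 (adjusted p = 0.0217, limma, 4 of 4 cows), and the difference at day 50 was 2.00 ± 0.58 (adjusted p = 0.104). The call at day 100 was lost without cow 1, 3 or 4 (adjusted p = 0.101, 0.0669 and 0.115, limma) and without the day 10 array of cow 1 (0.0711). Day 10 values were mostly undetected here too, and under normexp background correction the day 100 difference was 1.49 (adjusted p = 0.0106, limma). The single CCDC39 probe lies at chr1:88431055-88431114 on the plus strand and is shown because it carries this call.
CCDC39 probe: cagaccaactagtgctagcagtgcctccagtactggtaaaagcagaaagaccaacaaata

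CCDC40 showed no such change. Its levels were -5.09, -2.91, -3.26 and -5.46 in cows 1 to 4 at day 10 and -2.29, -3.95, -2.59 and -3.42 at day 100. The groups overlapped, because cows 2 and 3 were already high at day 10, and the difference was 1.12 ± 0.59 (adjusted p = 0.253, limma). Whether the ruler partners differ from each other was not tested.

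SPAG8 lies inside the doublet microtubules, where inner proteins stabilise the tubule wall. It was well above background on all 16 arrays, with levels of -2.18, -2.06, -1.35 and -2.10 in cows 1 to 4 at day 10, -1.32, -2.02, -0.80 and -0.05 at day 30, -1.24, -1.43, -1.17 and -0.97 at day 50, and -1.13, -1.30, 0.33 and -0.11 at day 100. All day 100 values were above all day 10 values. SPAG8 rose by 1.37 ± 0.31 at day 100 relative to day 10 (adjusted p = 0.0358, limma, 4 of 4 cows), but the fit without the cow term gave an adjusted p of 0.0767. The call was also lost without cow 1, 3 or 4 (adjusted p = 0.123, 0.184 and 0.12, limma) and without the day 10 array of cow 1 (0.0953). Its second, dimmer probe had a difference of 0.92 (adjusted p = 0.18).

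**Figure D3:**
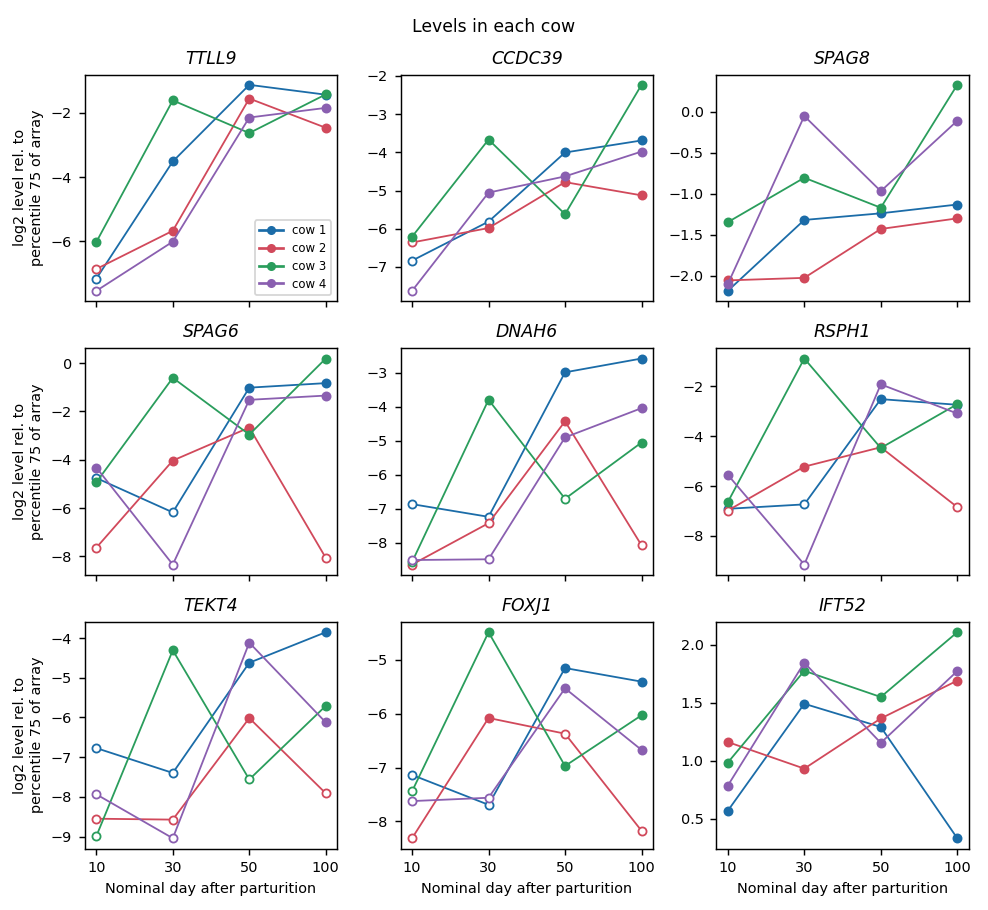
Level of 9 genes (vertical axes, log2 relative to the 75th percentile of the array, each with its own scale) in each cow (coloured lines) at nominal days 10, 30, 50 and 100 (horizontal axes, evenly spaced). Filled points were well above background and open points were not. TTLL9 and CCDC39 are up in all 4 cows at day 100, while SPAG6, DNAH6, RSPH1, TEKT4 and FOXJ1 are low in cow 2 at day 100 and high in cow 3 at day 30.

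FOXJ1, the regulator, was not well above background in any cow at day 10 and was so in 2, 3 and 3 cows at days 30, 50 and 100. Its levels were -7.14, -8.31, -7.44 and -7.62 in cows 1 to 4 at day 10, -7.69, -6.08, -4.49 and -7.56 at day 30, -5.16, -6.37, -6.97 and -5.53 at day 50, and -5.41, -8.17, -6.03 and -6.67 at day 100. The arrays with FOXJ1 above background were cows 2 and 3 at day 30 and cows 1, 3 and 4 at day 50 and at day 100. The difference from day 10 was 1.62 ± 0.72 at day 50 (adjusted p = 0.254, limma) and 1.06 ± 0.72 at day 100 (adjusted p = 0.37, limma), neither past the threshold. With the detection limit in place of day 10 the day 50 level was 1.42-fold higher. This is no strict bound, because the undetected day 50 value of cow 2 enters as read.

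A second FOXJ1 probe did not follow the first. It was well above background on 1 array, cow 1 at day 30, at a level of -3.29, an array on which the first probe was at -7.69 and not above background. The probes lie at chr19:57262765-57262824 and chr19:57261970-57262029, both on the plus strand. The second is shown because it leaves the level of FOXJ1 in cow 1 at day 30 unsettled.
Second FOXJ1 probe: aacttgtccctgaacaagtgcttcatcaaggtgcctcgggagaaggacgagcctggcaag

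Of the outer dynein arm genes, none of the 6 tested probes was called in any comparison. The heavy chains DNAH9 and DNAH11, both chosen after their values were seen, were not well above background in any cow at day 10. They were so in 3 and 4 cows at day 50 and in 2 and 3 cows at day 100. DNAH11 was at least 1.71-fold higher at day 50 than at day 10, with a fitted difference of 2.78 ± 0.82 (adjusted p = 0.106, limma). At day 100 the fold was 1.48 and the fitted difference 2.56 ± 0.82 (adjusted p = 0.0871, limma). The day 100 fold is no strict bound, because the undetected value of cow 2 enters as read. DNAL1, a light chain, was well above background on all 16 arrays. Its levels were -2.41, -1.47, -1.91 and -2.58 in cows 1 to 4 at day 10 and -2.11, -0.01, -1.99 and -0.79 at day 100. It was the one axonemal gene whose highest array was cow 2 at day 100, and its difference of 0.87 ± 0.49 did not pass (adjusted p = 0.287, limma).

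The intermediate chain DNAI2 had levels of -5.26, -7.98, -7.28 and -7.48 in cows 1 to 4 at day 10 and -6.10, -8.12, -6.25 and -5.78 at day 100. No day 10 array had it well above background, so the fitted difference of 0.44 ± 0.62 (adjusted p = 0.68, limma) rests on undetected values, and the detection limit gave no bound above 1. A second DNAI2 probe was well above background on a single array, cow 3 at day 10, at -2.88, with every other array between -8.93 and -6.89. The first probe on that array read -7.28 and was not above background.

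Inner dynein arm genes showed large but uneven differences, and none of their 6 tested probes was called. DNAH6, a heavy chain, had levels of -6.87, -8.65, -8.57 and -8.51 in cows 1 to 4 at day 10, none of them well above background. It was at -7.24, -7.43, -3.79 and -8.49 at day 30, -2.99, -4.43, -6.71 and -4.90 at day 50, and -2.58, -8.08, -5.05 and -4.04 at day 100. Cow 2 at day 100 was not above background, and the difference was 3.21 ± 1.11 (adjusted p = 0.104, limma). With the detection limit in place of day 10 it was 2.99-fold, which is no strict bound because the undetected value of cow 2 enters as read. Without the day 100 array of cow 2 the fitted difference was 4.16 ± 1.08 (adjusted p = 0.0401, limma). That array held the lowest day 100 level, so leaving it out raises the difference and supports no call. With all arrays, normexp background correction called DNAH6, at 1.31 (adjusted p = 0.0158, limma).

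The DNAH6 result also rests on 1 of 2 probes. The probe described above lies at chr11:52103548-52103598 and the other at chr11:52103551-52103610, both on the minus strand of the same build. These positions overlap by 48 bases, and the first spans 51 bases for 60 letters. The longest run of letters that the probes share is nevertheless 6, on either strand. The second probe was well above background on no array. They are shown because the coordinates alone would make them the same target.
First DNAH6 probe: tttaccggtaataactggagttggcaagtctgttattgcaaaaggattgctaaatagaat
Second DNAH6 probe: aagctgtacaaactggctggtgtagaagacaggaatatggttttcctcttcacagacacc

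DNAH7, another inner arm heavy chain and one chosen after its values were seen, was well above background on all 16 arrays. Its levels were -3.41, -3.56, -2.74 and -3.98 in cows 1 to 4 at day 10, -0.38, -1.75, -1.10 and -1.54 at day 50, and 1.24, -5.43, 0.36 and -1.54 at day 100. Day 50 lay wholly above day 10, whereas at day 100 cow 2 was below all day 10 cows and the other 3 were above them. The difference was 2.23 ± 1.04 at day 50 (adjusted p = 0.28, limma) and 2.08 ± 1.04 at day 100 (adjusted p = 0.233, limma). Without the day 100 array of cow 2, the low one, the day 100 difference was 3.39 ± 0.73 (adjusted p = 0.0215, limma), which supports no call.

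Radial spoke genes, which pass signals from the central pair to the dyneins, had 7 tested probes and none was called. RSPH1, a spoke head protein, had levels of -6.91, -6.99, -6.65 and -5.55 in cows 1 to 4 at day 10, -6.74, -5.22, -0.88 and -9.15 at day 30, -2.51, -4.44, -4.47 and -1.91 at day 50, and -2.73, -6.85, -2.71 and -3.08 at day 100. At day 30 cow 3 had the highest level of the gene on any array, and cows 1 and 4 were not above background. The difference at day 100 from day 10 was 2.68 ± 1.42 (adjusted p = 0.258, limma). RSPH3, a spoke stalk protein, was well above background in every cow and varied little, with 0.67, 0.99, 0.73 and 0.31 in cows 1 to 4 at day 10 and 1.59, 0.74, 1.09 and 0.61 at day 100. Its difference was 0.33 ± 0.23 (adjusted p = 0.395, limma).

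SPAG6, a central pair protein, was well above background on 11 of the 16 arrays. Its levels were -4.75, -7.64, -4.93 and -4.32 in cows 1 to 4 at day 10, -6.18, -4.03, -0.60 and -8.34 at day 30, -1.01, -2.66, -2.96 and -1.52 at day 50, and -0.83, -8.06, 0.19 and -1.34 at day 100. Every cow at day 50 was above every cow at day 10. At day 100 cow 2 was not above background and the other 3 cows were above all of day 10. Neither difference passed: 3.37 ± 1.61 at day 50 (adjusted p = 0.289, limma) and 2.90 ± 1.61 at day 100 (adjusted p = 0.278).

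By all 4 SPAG6 probes cow 3 was the highest cow at day 30 and cow 2 the lowest at day 100. A pair of them overlaps within the span chr13:22963276-22966319 on the plus strand, and another lies at chr13:22973673-22973732, so the pattern was seen at separate places of the gene. The overlapping pair is shown with its shared 53 bases in capitals.
SPAG6 probe, first of the pair: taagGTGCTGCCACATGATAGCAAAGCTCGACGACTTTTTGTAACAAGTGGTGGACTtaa
SPAG6 probe, second of the pair: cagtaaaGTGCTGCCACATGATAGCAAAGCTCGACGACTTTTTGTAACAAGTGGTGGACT

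The tektins are filament proteins inside the doublet. TEKT4 was not well above background in any cow at day 10, with levels of -6.77, -8.55, -8.99 and -7.94 in cows 1 to 4. Its levels were -7.40, -8.57, -4.31 and -9.04 at day 30, -4.62, -6.02, -7.56 and -4.12 at day 50, and -3.85, -7.91, -5.71 and -6.13 at day 100. The difference at day 100 from day 10 was 2.16 ± 1.02 (adjusted p = 0.207, limma). With the detection limit in place of day 10 it was 1.53-fold, no strict bound because the undetected day 100 value of cow 2 enters as read. TEKT2 was well above background on all 16 arrays, and its difference was 0.66 ± 0.63 (adjusted p = 0.531). Its highest level, 0.09, was again in cow 3 at day 30, where the other cows were between -3.02 and -2.66.

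**Figure D4:**
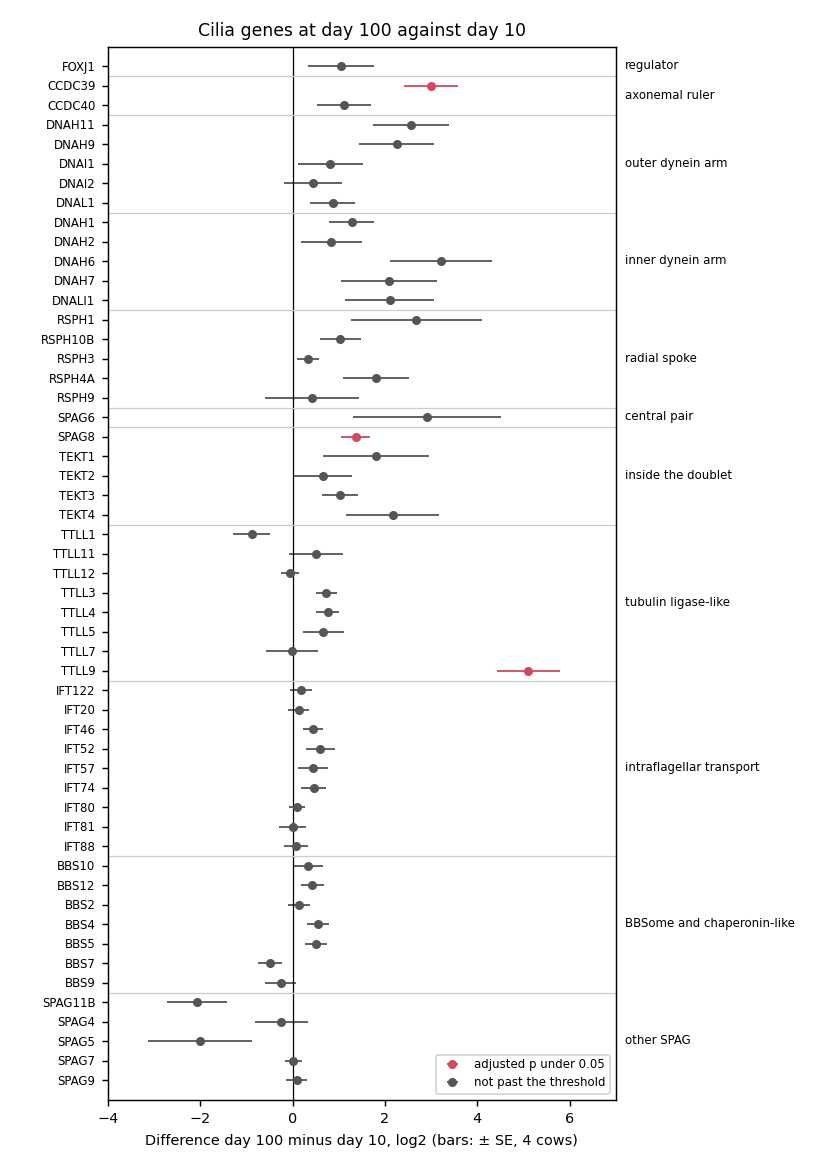
Difference in log2 level, day 100 minus day 10 (horizontal axis), for each of the 53 genes with a tested probe (rows, grouped by role), with bars of ± 1 SE from the fit over 4 cows. Red points passed an adjusted p of 0.05, and these are CCDC39, SPAG8 and TTLL9. Axonemal genes lie to the right of 0 with long bars, IFT and BBS genes near 0 with short ones.

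No probe of another tubulin ligase-like gene was called. Those of TTLL3, a glycylase, and TTLL4, both chosen after their values were seen, had differences of 0.73 ± 0.23 (adjusted p = 0.0842, limma, higher in 4 of 4 cows) and 0.75 ± 0.25 (adjusted p = 0.0929) at day 100 against day 10. Without the day 100 array of cow 1, the lowest of that day for TTLL3, the difference was 0.95 (adjusted p = 0.0349, limma), which supports no call. TTLL12 varied little, with 3.95, 3.42, 3.22 and 3.79 in cows 1 to 4 at day 10 and 3.51, 3.78, 3.50 and 3.38 at day 100, and a difference of -0.06 ± 0.20 (adjusted p = 0.878, limma). TTLL7 had a difference of -0.01 ± 0.56 (adjusted p = 0.996) and its highest level in cow 1 at day 30, at -4.11. TTLL1, a polyglutamylase subunit chosen here after its values were seen, had lower values at day 100 than at day 10 in all 4 cows by each of its 3 probes, with a difference of -0.89 ± 0.41 for its brightest probe (adjusted p = 0.195, limma). TTLL5, also chosen after its values were seen, stood out in cow 1 at day 100, at -0.17, with the other 3 cows between -2.86 and -2.14. Of its probes 2 were called under normexp background correction, at 1.23 and 1.18 (adjusted p = 0.0264 and 0.0266, limma).

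IFT genes move building blocks along the axoneme, and their 27 probes gave no call in any comparison. IFT122, of the retrograde IFT-A complex, had levels of 1.59, 2.35, 1.95 and 1.30 in cows 1 to 4 at day 10 and 1.77, 1.85, 2.16 and 2.11 at day 100. The difference was 0.17 ± 0.24 (adjusted p = 0.671, limma). IFT52, of the anterograde IFT-B complex, had the largest difference of the family at 0.60 ± 0.31 (adjusted p = 0.24). Its levels were 0.57, 1.16, 0.99 and 0.79 at day 10 and 0.33, 1.69, 2.11 and 1.77 at day 100, where cow 1 was below all day 10 cows. IFT81, which binds tubulin in the same complex, had the smallest difference, 0.00 ± 0.29. Cow 1 at day 100, the array with the highest epithelial markers, held the lowest level of 5 of the 16 IFT and BBS genes, and cow 3 at day 100 held the highest level of 9 of them.

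BBS genes encode the BBSome, a membrane cargo adaptor, and chaperonin-like proteins needed to assemble it. Their 14 probes gave no call. BBS2 had levels of 2.02, 2.28, 2.25 and 1.89 in cows 1 to 4 at day 10 and 2.21, 2.05, 2.78 and 1.92 at day 100, a difference of 0.13 ± 0.24 (adjusted p = 0.755, limma). BBS4 had the largest difference of the family, 0.55 ± 0.24 (adjusted p = 0.18).

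BBS5, a BBSome subunit chosen after its values were seen, had a probe that followed the cow rather than the day. Over the 4 days this probe, at chr2:27547768-27547827 on the minus strand, ran from -0.69 to 0.11 in cow 1, -0.23 to 0.10 in cow 2, -2.45 to -1.52 in cow 3 and -3.74 to -1.49 in cow 4. Cows 1 and 2 thus did not overlap cows 3 and 4 on any day. The other BBS5 probe, at chr2:27547248-27547307, showed no such split and ran from -1.42 to -0.15 over all 16 arrays. Sequence differences between the animals were not analysed here.

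Among SPAG genes outside the axoneme, SPAG7 was the steadiest member, with levels between 2.58 and 3.21 and a difference of 0.01 ± 0.19 at day 100 against day 10 (adjusted p = 0.971, limma). SPAG5, a mitotic spindle protein chosen after its values were seen, had its highest levels in cow 3 at day 30 (-0.08) and cow 4 at day 50 (-0.91), and was between -5.46 and -4.00 at day 100. SPAG11B, a defensin-like peptide gene chosen in the same way, had the most negative difference of the tested genes at day 100 against day 10, -2.07 ± 0.65 (adjusted p = 0.0819, limma, lower in 4 of 4 cows). Without the day 100 array of cow 2, the highest of that day for SPAG11B, it was -2.58 ± 0.64 (adjusted p = 0.0353, limma), which supports no call. Under normexp background correction it was 0.12 ± 0.35 (adjusted p = 0.833, limma).

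Ciliated cells belong to the epithelium, so the axonemal genes were set beside the epithelial markers of the same biopsies. The marker list was at 1.08, -2.70, -0.97 and 1.05 in cows 1 to 4 at day 10. It was at -0.68, -0.18, 0.32 and -2.19 at day 30, 0.79, 0.56, 1.41 and 1.01 at day 50, and 2.94, -3.84, 0.82 and 0.58 at day 100. The array of cow 2 at day 100, low for most axonemal genes, had the lowest epithelial level of all. Among the day 10 biopsies, cows 1 and 4 had epithelial levels like those of day 50, with axonemal means of -0.60 and -1.35. Cows 2 and 3 had lower epithelial levels on that day, and their axonemal means were -1.04 and -0.91. Cow 3 at day 50 paired the epithelial level of 1.41 with an axonemal mean of -0.33. The neutrophil list read 3.36 for cow 1 and 3.69 for cow 4 at day 10, higher than the 0.47 of cows 2 and 3 and than every later array. What set the axonemal levels of these biopsies was not tested.

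**Figure D5:**
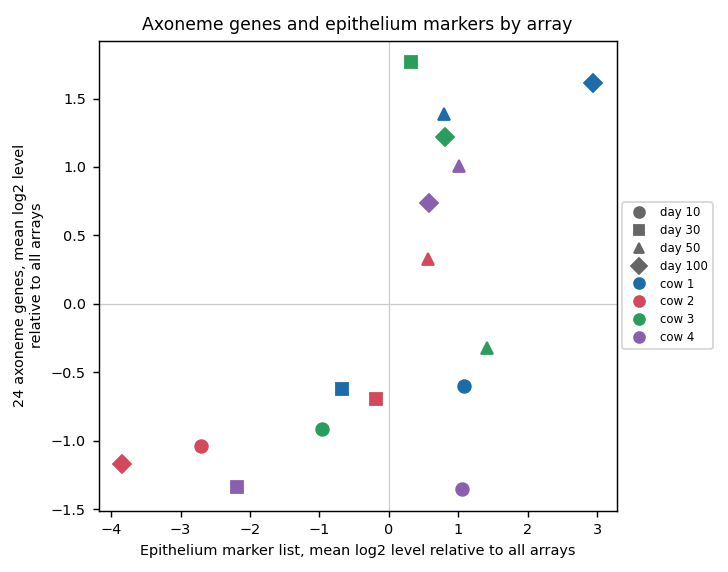
Mean log2 level of the 24 axonemal genes (vertical axis) against that of the epithelial marker list (horizontal axis) on each of the 16 arrays, both relative to the mean of all arrays. Colours are cows and shapes are days. Cow 2 at day 100 is at the lower left, and cows 1 and 4 at day 10 have epithelial levels of 1.08 and 1.05 with axonemal levels below 0. Cow 3 at day 50 also has an axonemal level below 0, at an epithelial level of 1.41.

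With the epithelial level as a covariate, limma called 3 member probes at day 50 and 6 at day 100, all higher than at day 10. Of all tested probes it called 0.594% higher and 1.29% lower at day 50, and 2.79% higher and 4.92% lower at day 100. TTLL9 then differed by 5.09 ± 0.72 (adjusted p = 0.00701), CCDC39 by 2.99 ± 0.61 (adjusted p = 0.0222) and SPAG8 by 1.43 ± 0.30 (adjusted p = 0.0228) at day 100 against day 10. A second, dimmer DNAH7 probe, not called without the covariate, differed by 1.81 ± 0.46 (adjusted p = 0.0418, limma). In cow 2 at day 100 TTLL9 was at -2.46 and CCDC39 at -5.13, each above all of its day 10 values, and so were SPAG8, DNAH1, TEKT3 and DNAL1. DNAH1 was so by little, at -3.344 against a highest day 10 level of -3.358. The remaining axonemal genes, most of the 24, were not above all of their day 10 values there, among them DNAH7 at -5.43 and SPAG6 at -8.06. The part of tissue make-up in the differences of TTLL9, CCDC39, SPAG8 and the other genes was not tested. The covariate is a list of epithelial markers and does not measure ciliated cells.

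Leaving out the day 100 array of cow 2 gave 10 member probes higher and 1 lower at day 100 against day 10, in 8 genes. These were TTLL9, CCDC39 and SPAG8 with DNAH6, DNAH7, DNAH11 and SPAG6, and SPAG11B as the lower one. The same fit called 4.17% of all tested probes higher and 5.18% lower. The array left out was low for most axonemal genes, so its removal raises their differences and supports no further call. Leaving out cow 1 gave 0 member probes, beside 0.0542% of all tested probes higher and 0.172% lower. Without cow 4 there were 2, beside 0.0904% and 0.491%, and without cow 3 there were 3, beside 0.0301% and 0.22%. Without the day 10 array of cow 1 there were 3, beside 0.157% and 0.645%.

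Other cilia genes were counted from lists outside the naming rule. The first held 71 probes of 44 genes whose current symbol, but not their file name, fits the rule, such as the CFAP genes. Of its 62 tested probes 4 were higher and 0 lower at day 100 against day 10, beside 1.45% and 3.15% of all tested probes, and none was called at day 30 or 50. CFAP47, linked to the central pair, had levels of -5.88, -2.81, -2.92 and -8.70 in cows 1 to 4 at day 10 and 0.80, -1.21, 1.39 and -0.36 at day 100. It rose by 5.23 ± 1.14 (adjusted p = 0.0307, limma, 4 of 4 cows), and the call was lost without cow 1, 3 or 4 (adjusted p = 0.137, 0.115 and 0.127) and without the day 100 or day 10 array of cow 1 (0.0597 and 0.0953). At day 10 CFAP47 was well above background in only 2 cows, so the size of this rise rests in part on undetected values. CFAP210, a protein inside the doublet, rose by 1.72 ± 0.43 (adjusted p = 0.0473), a call that any single cow left out removed. CFAP299 had 2 probes called at 3.62 and 3.52 (adjusted p = 0.0392 and 0.0493), while its brightest probe missed the threshold at 4.16 ± 1.16 (adjusted p = 0.0626, limma).

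The second list held 86 genes of the multiciliated cell programme and of motile cilia, 62 of them on the array, with 82 tested probes. It gave 2 probes higher and 0 lower at both day 50 and day 100 against day 10, beside 0.594% and 1.05% of all tested probes at day 50 and 1.45% and 3.15% at day 100. CLXN, a calcium sensor of the outer dynein arm, had levels of -7.01, -5.63, -6.39 and -8.00 in cows 1 to 4 at day 10 and -2.19, -4.70, -0.96 and -2.82 at day 100. It rose by 3.95 ± 0.86 at day 50 (adjusted p = 0.0472, limma) and by 4.09 ± 0.86 at day 100 (adjusted p = 0.0269), the first lost when any single cow was left out and the second lost without cow 1, 3 or 4 (adjusted p = 0.127, 0.108 and 0.121) or without the day 100 or day 10 array of cow 1 (0.0541 and 0.0857). With the epithelial level as a covariate the day 50 difference of CLXN missed the threshold (adjusted p = 0.0695). At day 10 CLXN was well above background in only 1 cow, which limits the sizes of its differences. The other called probe was 1 of DYDC2, whose brighter probe was at 4.06 ± 1.33 at day 100 (adjusted p = 0.0909).

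A list of 30 primary cilium and basal body genes, 25 of them on the array, had 48 tested probes, of which 1 was higher and 0 lower at day 50 and at day 100, beside the same shares of all tested probes. That probe belongs to PTCH1, the hedgehog receptor, which rose by 2.50 (adjusted p = 0.0361, limma) and 2.13 (adjusted p = 0.0382). The median difference at day 100 from day 10 over the tested probes was 0.97 in the first list, 1.18 in the second and 0.02 in the primary cilium list, beside -0.07 over all tested probes. Probes enter these medians by being detected at some time, so they describe the lists and support no call.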

How the data were processed

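Intensity values came from the deposited Agilent scanner files. Per the file headers, the authors' processed signal was background-subtracted and detrended by Feature Extraction 11.5.1.1, while the submitters' processing notes name 10.5.1.1. Other columns of the deposited files flag, as 0 or 1, whether a spot is nonuniform, saturated or well above background. The authors deposited a log2 value table too, which matched the percentile-scaled log2 signal (r of 0.9998 to 1 across probes) and served as an alternative.

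Nonuniform spots (4 to 125 per array) were left out and no spot was saturated. The array's 75th percentile of log2 processed signal was subtracted and spots of a probe were averaged. Probes well above background on at least 4 arrays (33182) were fitted with limma 3.58.1 in R 4.3.3 on day and cow, with 9 residual degrees of freedom, Benjamini-Hochberg adjustment over all of them and a threshold of 0.05. The fit was tested on simulated data. The number of arrays limits the precision, and the median SE of a difference was 0.36. For a group with no array above background, the bound on a fold uses the higher of each array's lowest detected level and the probe's own. The other group enters with its levels as read, so the fold is no strict bound where that group holds an undetected array.

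The same individuals were biopsied at each time, so arrays pair by cow. Deviations from the day means correlated with a median of 0.12 within a cow (24 pairs) and -0.04 between cows (72 pairs). Alternatives were no cow term, normexp background correction (offset 50), quantile normalization, the value table, other filters, only the days compared, an epithelial covariate, and leaving out cows or arrays.

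Members and lists were chosen with earlier results of these data known. Genes were named by a rule: those that the member rule names outright, those called, and in each family the highest, the most and the least changed, and called genes of the other lists. Exceptions are said to be chosen after their values were seen, apart from genes that appear only in full lists of calls, detection or levels. Current symbols come from RefSeq's gene table of assembly ARS-UCD2.0, and 10058 of 43653 probes kept the file's name. Coordinates are those of the files. Promoter and protein sequences were not used here.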

Additional observations from a re-analysis of the deposited data

Results flagged for a closer look

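Each gene named was checked for an array far from the other 3 of its day, by the gap to the nearest value over the range of the 4. Of 148 groups 11 stood out. Chance gives about 1 in 20, but genes on 1 array are not independent and some genes were chosen after their values were seen. These rates are therefore not compared. No explanation was tested.

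At day 100 cow 2 had the low value of RSPH1, at -6.85, where it was not well above background, against -3.09 to -2.71 in the other cows, and the high value of TTLL1, at 0.94 against -0.40 to -0.29. At day 30 cow 3 was high for TEKT2, at 0.086 against -3.02 to -2.66. It was also high for RSPH9, a spoke head protein chosen after its values were seen, at -0.44 against -4.81 to -4.11. At day 50 cow 4 was high for TTLL1, at 1.04 against 0.13 to 0.27.

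The other 6 were at day 10. Cow 1 stood apart for DNAH6, at -6.87 against -8.65 to -8.51, and for CFAP299, at -7.18 against -9.29 to -8.98, although neither gene was well above background on any day 10 array. CFAP210 was low in cow 1, at -5.97 against -4.97 to -4.77. DYDC2 was low in cow 4, at -7.44 against -6.03 to -5.83. SPAG8 was high in cow 3, at -1.35 against -2.18 to -2.06. IFT80, of the IFT-B complex and chosen after its values were seen, was low in cow 2, at -0.053 against 0.15 to 0.17.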

How the results depend on the processing

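For day 100 against day 10, with 5 member probes called, leaving out a cow or an array gave 0 to 11. For day 50 against day 10, with 3 called, it gave 0 to 3, and for the F test, with 3 called, 0 to 4. The same fits called 0.0301% to 4.17% of all tested probes higher and 0.172% to 5.18% lower at day 100. At day 50 they called 0.00904% to 1.45% higher and 0.0542% to 1.65% lower, and by the F test 0.0573% to 3.51%. A fit of only the 2 days compared gave 11 at day 50, beside 1.42% of all tested probes higher and 1.25% lower. These were probes of DNAH6, DNAH7, DNAH11, RSPH1, SPAG6 and TTLL9. At day 100 that fit gave 2, beside 0.0271% and 0.105% of all tested probes. Normexp background correction gave 20 at day 100. Over all tested probes, normexp called 1535 higher and 606 lower at day 100 against day 10, and quantile normalization 643 and 826, beside 482 and 1045. The cause of these shifts was not tested.

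Without the replicate block, which drops the pairing by cow, 3 member probes were called at day 50, 4 at day 100 and 2 by the F test. This ended the call of SPAG8 (adjusted p = 0.0767, limma) and that of CFAP210 (0.0641), and changed no other call of a named gene. SPAG11B, not called, changed sign under normexp (0.12). Of 39 differences of named genes, 39 kept their side of the threshold with the value table and with quantile normalization. Differences smaller than their SE were given no direction.

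Dim probes limit these results: a difference from a day on which no array was well above background is at best a bound. Day 10 was such a day for FOXJ1, DNAH2, DNAH6, DNAH9, DNAH11, DNAI2, DNALI1, RSPH4A, TEKT4 and CFAP299. The sizes of the TTLL9, CCDC39 and CLXN differences are limited in the same way, since each was well above background in only 1 cow at day 10. CFAP47 was so in 2 cows.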
